A study of Mus musculus with 4 samples.

Results

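The genes described here build the proton pump of the lysosome, dock the nutrient-sensing machinery on its surface and digest protein in its lumen. They were chosen by symbol: every gene named Atp6v0, Atp6v1 or Atp6ap (the vacuolar H+-ATPase, V-ATPase, and its accessory proteins), Lamtor (the Ragulator complex) or Rrag (the Rag GTPases), and 13 cathepsins. The array carried probes for 47 such genes among 20866 genes with a symbol. Of these, 41 were kept, having a probe that stood well above background on each array of the controls, of the metformin group or of both, out of 21649 genes and transcripts tested in all. The kept genes were 7 of 9 subunits of the membrane sector V0, 11 of 13 of the catalytic sector V1, 2 of 3 accessory proteins, 5 of 5 Ragulator subunits, 3 of 4 Rag GTPases and 13 of 13 cathepsins. Probes for the other 6 (Atp6v0a4, Atp6v0d2, Atp6v1b1, Atp6v1c2, Atp6ap1l and Rragb) were not well above background on any array, and no difference is given for them. Tcirg1, which encodes a further V0 subunit, has no such symbol and is described below with the genes around the members. Among the kept genes, 39 were above background on all 4 arrays. The exceptions were Ctse and Atp6v1g3, each above background on 1 of 2 control arrays and kept through the metformin group.

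RNA came from the ileum, the last segment of the small intestine, of male C57BL/6J mice aged 10 weeks. The control group had 2 samples, and the other group, also 2 samples, came from mice given metformin by mouth at 1000 mg/kg. Each sample was hybridised to its own one-colour Agilent array. The labels state neither how long metformin was given nor what the controls received. They do not state that samples of a group came from different mice. The spread behind each p-value is therefore that of these samples and may not include differences between mice.

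The V-ATPase is a rotary pump. Its V1 sector, in the cytosol, hydrolyses ATP, and the V0 sector, in the membrane, carries protons into the lysosome, where acid pH activates the digestive enzymes. Ragulator is anchored in the same membrane. It binds the V-ATPase and holds the Rag GTPases, which recruit the growth-controlling kinase complex mTORC1 when amino acids are plentiful, and it also serves as a platform on which the energy sensor AMPK is activated by LKB1 and AXIN. Metformin has been reported to engage this platform through the protein PEN2 (gene Psenen) and the accessory subunit ATP6AP1. Cathepsins are lysosomal proteases. Most are cysteine enzymes, while cathepsins D and E are aspartic proteases and cathepsin A is a serine carboxypeptidase. Many genes of lysosomal proteins carry a short palindromic element bound by TFEB, TFE3 and MITF, the transcription factors that adjust lysosome number.

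The sequence of that element was looked for in the RefSeq promoters. Because lysosomal genes are already known to carry it, its share among the members is not an independent finding. RefSeq promoters of 300 bases (250 before to 50 after the start site, GRCm38.p6) were matched to 35 of the 47 genes. The motif searched was the 8-letter palindrome TCACGTGA, which reads the same on both strands and contains the 6-letter core CACGTG. It lay in a promoter of 5 of the 35 genes. Stretches around it are printed 5′ to 3′ on the strand of the gene, with the motif in capitals:
Atp6v0d1, chr8:105566053-105566098, minus strand: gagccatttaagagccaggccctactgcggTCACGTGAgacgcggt
Atp6v0e, chr17:26676368-26676407, plus strand: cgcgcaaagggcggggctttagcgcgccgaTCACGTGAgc
Atp6v1a, chr16:44139354-44139421, minus strand: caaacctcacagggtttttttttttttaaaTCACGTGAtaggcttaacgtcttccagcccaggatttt
Ctsa, chr2:164833730-164833784, plus strand: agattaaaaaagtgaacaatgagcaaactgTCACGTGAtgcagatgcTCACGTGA
Ctsd, chr7:142387889-142387956, minus strand: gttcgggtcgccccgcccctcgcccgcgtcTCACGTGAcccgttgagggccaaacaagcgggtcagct
The first base of the motif was 4 bases before the start site in Atp6v0d1, 13 before it in Ctsa, 99 before it in Ctsd and 132 before it in Atp6v1a, and it was base 3 after the start in Atp6v0e. The Ctsa promoter held 2 copies, the other beginning at base 5 after the start. The motif was present in 5 of the 31 kept members with a promoter (16.1%) and in 228 of 12210 tested genes with one (1.87%). Over all 27025 genes with a promoter it was in 304 (1.12%), and counted per promoter in 320 of 32851 (0.974%). The shorter core, which includes every full match, was in 11 of the 31 (35.5%) and in 10.8% of the tested genes. It was in 8.09% of all genes with a promoter and, counted per promoter, in 7.15%. These are matches of letters and do not show that a factor was bound.

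All 4 arrays were on 1 slide and read in 1 scan, with the controls in positions 1 and 2 and the metformin samples in positions 3 and 4, so slide position and treatment cannot be told apart. Between 65.1% and 69.1% of probes were well above background, and no spot was saturated. Array profiles correlated at r = 0.973 between the controls, 0.967 between the metformin samples and 0.993 between control 2 and metformin 2, across probes, which are not independent. Metformin 1 stood apart in markers of gut region. Fabp6, whose product binds bile acids in ileal enterocytes, read 8.94 and 8.29 in the controls and 4.16 and 8.70 with metformin, and Lct, the lactase of the proximal intestine, read 6.11 and 5.61 in the controls and 8.43 and 4.84 with metformin. Relative to the control mean, medians over 6 ileal enterocyte markers were -2.31 in metformin 1 and 0.62 in metformin 2, and over 7 proximal enterocyte markers 2.12 and -0.53. The proximal markers were not uniform. Of the 7, 2 had the lower mean with metformin, Slc40a1 and Cybrd1, and both were lowest in metformin 1 (-1.68 and -3.94). Onecut2 was above both controls in both metformin samples. The part of gut region in the results below was not tested, and the main values are also given without this library. Every level below is a log2 signal on which 0 is the 75th percentile of that array. Every difference is the metformin mean minus the control mean on the same scale, with the standard error (SE) from limma, a linear model that pools the variance of all genes. Levels of different probes are not compared.

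The comparison asked whether oral metformin altered the expression of these genes in the ileum. No member passed the test (limma, adjusted p under 0.05 over all genes). The smallest adjusted p of a member was 0.9996, and no gene on the array passed either, a background of 0%. The unadjusted p was under 0.05 for 347 genes, none of them a member; the smallest unadjusted p among members was 0.128 (limma), for Ctse, a gene kept through its higher group alone. With 2 samples against 2, an exact two-sided permutation test of a single gene cannot go below 0.333. The 95% interval of the difference held 0 for 41 of 41 members, and even the narrowest reached 0.73 to either side of its estimate, so smaller differences were not detectable here.

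Small differences above 0 were the common pattern. In 37 of the 41 kept members the metformin mean was the higher, where 57.9% of all genes tested had a difference above 0. In the signals deposited without scaling between arrays, 13 of 41 members and 20.7% of all genes were higher. There 31 of 41 members lay above the all-gene median, which was -0.17. In the main values the median difference over the members was 0.17, against 0.06 over all genes, and 34 of 41 members lay above the all-gene median. Absorptive enterocyte markers had a larger median difference, 0.33, with 12 of 13 higher, so in these values the direction was not particular to the members. Of the 13 markers, 0 were higher without overlap. With control 2 left out, 4 of 13 were higher (median -0.06), and with metformin 1 left out, 8 (0.07). Leaving out control 1 or metformin 2 gave 12 and 11 of 13. Members higher numbered 31 to 33 of 41 with 1 sample left out. The part of cell types in the direction was not tested. Of the 41 differences, 30 were smaller than 1.2-fold in either direction (73.2%, against 58.6% of all genes). Both metformin samples lay above both controls for 16 members, where the same held for 12.5% of all genes. After quantile normalization this count was 7, against 14.1% of all genes, a share near the background. In the unscaled deposited signals it was 0, against 1.34% of all genes. Among the 39 members above background on all 4 arrays, 35 were higher and 15 were higher without overlap. The shares of all genes under that filter were 57.1% and 11.2%. Both metformin samples lay below both controls for Ctsk alone, against 8.46% of all genes, and for no member under normexp background correction. With a difference of at least 2-fold added, 1 member was higher without overlap (Ctse, background 0.633%) and none was lower (background 2.3%). The Ctse difference was under 2-fold with normexp (0.37 on the log2 scale), in the deposited table scaled (0.47) and unscaled (0.21), without control 1 (0.60) and without metformin 1 (0.48). Metformin 1 gave the highest of the 4 values for 23 members, metformin 2 for 13, control 1 for 3 and control 2 for 2. Without metformin 1, the library apart in gut region, 33 of 41 members were higher (53.6% of all genes), with a median difference of 0.16 against 0.03 over all genes.

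**Figure D1:**
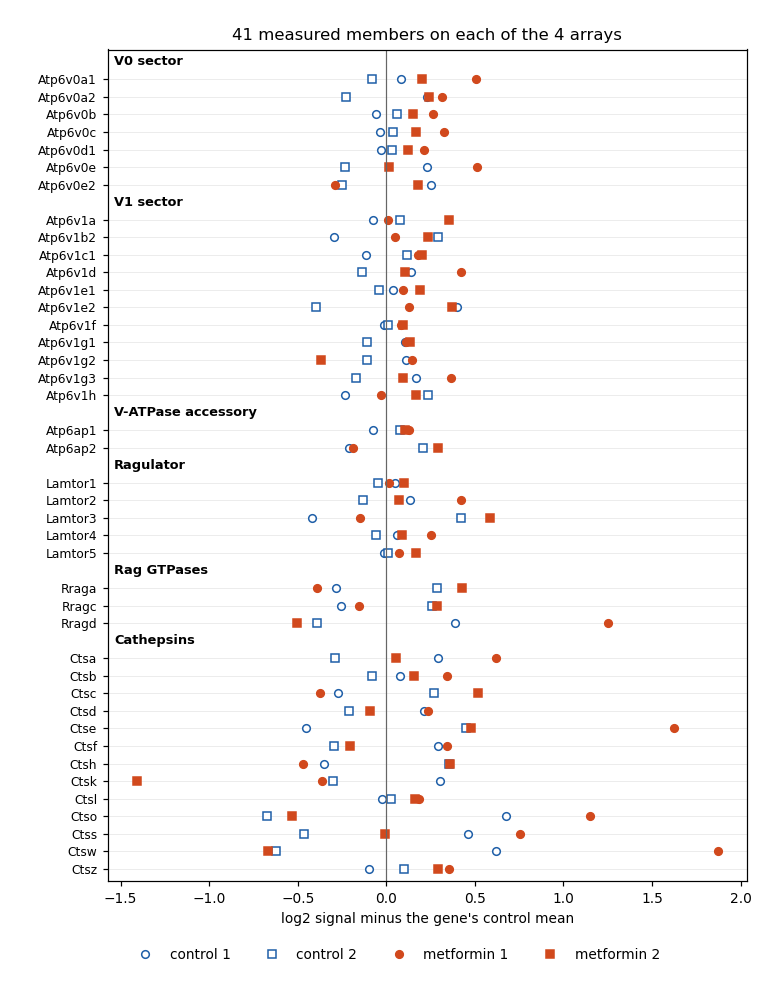
Each row is a member and each point an array; the x axis is the log2 signal minus the gene's mean in the 2 controls (open symbols, control; filled, metformin). Most V-ATPase rows stay within a narrow band, while Rragd, Ctse, Ctsk, Ctso and Ctsw spread over 1.7 log2 units or more.

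Over the 20 V-ATPase genes the median difference was 0.17, and 18 had the higher mean with metformin, a direction that turned in the unscaled deposited signals (median -0.09). Relative to each gene's control mean, the median over the 20 stood at 0.01 and -0.01 in the controls and at 0.14 and 0.17 in the metformin samples. Metformin values lay above the controls without overlap for 10 of the 20, against 12.5% of all genes. For 17 of the 20 the difference was smaller than 1.2-fold, and the median SD within groups was 0.20, compared with 0.37 over all genes. As a set the pump genes thus had little spread within groups, a trait not particular to them. The median SD was 0.10 over 5 Ragulator subunits and 0.15 over 9 mTORC1 genes, but 0.50 over 3 Rag GTPases. Single pump genes with low signal spread more, such as Atp6v1e2 (SD 0.42).

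The V0 sector contains the proton path. Its median difference was 0.25 over 7 genes, 6 of them higher and 5 without overlap (12.5% of all genes), and it was -0.01 in the unscaled deposited signals. Atp6v0a1 encodes an isoform of the large subunit that forms the path together with the rotor ring. It read 2.92 and 2.75 in the controls and 3.34 and 3.04 with metformin, the largest difference of the pump genes (0.35, SE 0.30; limma, unadjusted p = 0.294). Both metformin samples were above both controls, metformin 2 by a small margin. Atp6v0a2, the isoform known from the Golgi and endosomes, read 2.23 and 1.77 in the controls and 2.32 and 2.24 with metformin (difference 0.28, SE 0.32). Control 2 was low and the other 3 samples were close together.

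The rotor ring is made of the proteolipid subunits encoded by Atp6v0c and Atp6v0b. Atp6v0c read 3.99 and 4.07 in the controls and 4.36 and 4.20 with metformin (difference 0.25, SE 0.28). Atp6v0b read 2.36 and 2.48 in the controls and 2.69 and 2.57 with metformin (difference 0.21, SE 0.28). In both ring genes metformin 1 was the highest sample and the groups did not overlap, and in the unscaled deposited signals both differences were just below 0 (-0.01 and -0.06). RefSeq also lists processed copies of Atp6v0c, whose transcripts a probe may not tell from the gene's own. Atp6v0d1, which couples the ring to the V1 stalk and has the motif closest upstream of its start, read 2.21 and 2.27 in the controls and 2.46 and 2.37 with metformin (difference 0.17, SE 0.28).

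Atp6v0e, a small membrane subunit that also carries the motif, read 5.22 and 4.76 in the controls and 5.50 and 5.01 with metformin (difference 0.26, SE 0.36). Its groups overlapped: control 1 was above metformin 2. Atp6v0e2, its paralog, was the V0 gene with a difference below 0, with 2.46 and 1.95 in the controls and 1.91 and 2.39 with metformin (difference -0.06, SE 0.36). Each group of Atp6v0e2 held a high and a low sample.

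The V1 sector had a median difference of 0.14 over 11 genes, 10 of them higher and 4 without overlap (12.5% of all genes), and it was -0.09 in the unscaled deposited signals; 10 of the 11 differed by less than 1.2-fold. Atp6v1a encodes the catalytic A subunit that binds ATP. It read 2.11 and 2.26 in the controls and 2.19 and 2.54 with metformin (difference 0.18, SE 0.30), and its other probe differed by 0.13. Metformin 2 was the high sample and metformin 1 lay between the controls. Atp6v1b2, the non-catalytic partner found in most tissues, read -1.72 and -1.13 in the controls and -1.38 and -1.19 with metformin (difference 0.14, SE 0.34), and here the controls enclosed both metformin values.

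The peripheral stalks that hold V1 still are built from C, E, G and H subunits. Atp6v1c1, whose product links the stalks to V0 and controls reversible assembly of the pump, read 0.19 and 0.42 in the controls and 0.48 and 0.51 with metformin (difference 0.19, SE 0.28). Atp6v1e1 read 3.26 and 3.18 in the controls and 3.32 and 3.42 with metformin (difference 0.14, SE 0.28). In both genes the metformin samples were the upper pair. Atp6v1g1 read 3.56 and 3.35 in the controls and 3.56 and 3.59 with metformin (difference 0.12, SE 0.28). Control 1 and metformin 1 of Atp6v1g1 coincided to the second decimal. Atp6v1h, the regulatory subunit that stops ATP hydrolysis in detached V1, read -0.22 and 0.24 in the controls and -0.02 and 0.18 with metformin (difference 0.07, SE 0.32), with the controls outermost.

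The central rotor of V1 contains subunits D and F. Atp6v1d read 3.46 and 3.18 in the controls and 3.74 and 3.42 with metformin (difference 0.26, SE 0.31), and control 1 lay above metformin 2. Atp6v1f read 4.57 and 4.59 in the controls and 4.66 and 4.68 with metformin. Its 4 values spanned 0.11, the smallest range of any member, and its difference was 0.09 (SE 0.27). For Atp6v1f the metformin samples were above the controls by a small and even step.

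Several V1 isoforms belong to other tissues. Atp6v1e2 is known from testis. It read -3.90 and -4.70 in the controls and -4.17 and -3.93 with metformin (difference 0.25, SE 0.39), which left the groups overlapping because control 1 was the highest sample. Atp6v1g2, known from neurons, read -5.23 and -5.46 in the controls and -5.20 and -5.71 with metformin (difference -0.11, SE 0.33). Atp6v1g3, known from kidney, read -6.41 and -6.74 in the controls and -6.21 and -6.48 with metformin (difference 0.23, SE 0.31). All 3 were far below the 75th percentile of their arrays. Atp6v1b1, Atp6v0a4, Atp6v0d2 and Atp6v1c2, isoforms known from acid-secreting cells of the kidney, from osteoclasts or from other specialised cells, had no probe well above background.

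Atp6ap1 encodes the accessory subunit to which the PEN2 protein has been reported to bind. It read 0.37 and 0.52 in the controls and 0.57 and 0.55 with metformin (difference 0.12, SE 0.28), and its dimmer probe differed by 0.14. The metformin samples were nearly equal and above both controls. Atp6ap2, the prorenin receptor, which helps to assemble the pump, read 2.68 and 3.1 in the controls and 2.70 and 3.18 with metformin (difference 0.05, SE 0.35). Its high samples were control 2 and metformin 2, and the direction of so small a difference turned under quantile normalization (-0.06) and in the unscaled deposited signals (-0.19).

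**Figure D2:**
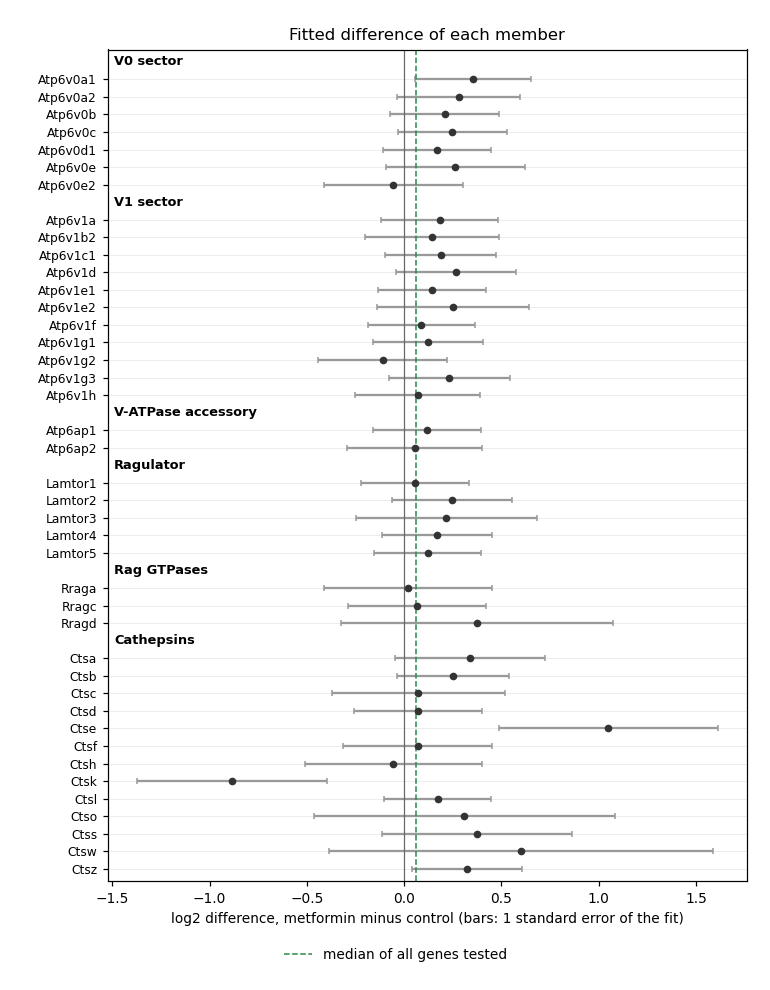
The x axis is the log2 difference, metformin minus control, fitted by limma for each of the 41 kept members, with bars of 1 SE; the dashed line is the median of all genes tested. Estimates run from -0.88 for Ctsk to 1.05 for Ctse, and most V-ATPase and Ragulator genes sit between 0 and 0.3. Without scaling between arrays most of these estimates fall below 0, as does the median of all genes tested (-0.17).

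All 8 Ragulator and Rag genes had the higher mean with metformin, by a median of 0.15, which became -0.12 in the unscaled deposited signals. Without metformin 2 the median was 0.04. For 2 of the 8 the groups did not overlap, against 12.5% of all genes. Relative to the control mean, the median over the 8 stood at 0.02 and -0.02 in the controls and at 0.04 and 0.13 in the metformin samples.

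Lamtor1 encodes the lipid-anchored subunit (p18) that wraps the rest of Ragulator and fixes it to the lysosome. It read 3.65 and 3.56 in the controls and 3.62 and 3.71 with metformin (difference 0.06, SE 0.28), and quantile normalization gave -0.07. Its 4 values spanned 0.15, and the groups overlapped. Lamtor2 and Lamtor3 form 1 of the paired scaffolds on which the Rags sit. Lamtor2 (p14) read 3.60 and 3.34 in the controls and 3.89 and 3.54 with metformin (difference 0.25, SE 0.31). Lamtor3 (MP1, a scaffold of the MAP kinase pathway) read 3.22 and 4.06 in the controls and 3.49 and 4.22 with metformin (difference 0.22, SE 0.46). In these partners the samples ran opposite ways: samples numbered 1 were high for Lamtor2 and low for Lamtor3. The other 2 probes of Lamtor3 showed the same order, with differences of 0.21 and 0.17, and RefSeq lists a pseudogene of Lamtor3.

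Lamtor4 and Lamtor5 form the other scaffold pair. Lamtor4 read 3.34 and 3.22 in the controls and 3.53 and 3.37 with metformin (difference 0.17, SE 0.28). Lamtor5 (HBXIP) read 3.02 and 3.05 in the controls and 3.11 and 3.20 with metformin (difference 0.12, SE 0.28). These were the Ragulator genes whose groups did not overlap, and in the unscaled deposited signals both differences were -0.12.

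The Rag GTPases work as pairs of RagA or RagB with RagC or RagD. Rraga read 1.19 and 1.76 in the controls and 1.09 and 1.90 with metformin, a difference of 0.02 (SE 0.43). Rragc read 1.88 and 2.40 in the controls and 1.98 and 2.43 with metformin (difference 0.07, SE 0.36; other probe 0.05). Both genes were lower in the samples numbered 1 than in those numbered 2, whatever the treatment, and both differences were below 0 under quantile normalization (-0.03 and -0.004). Rragd, a target of TFEB in other tissues, read -2.89 and -3.67 in the controls and -2.03 and -3.79 with metformin (difference 0.37, SE 0.70). Metformin 1 and metformin 2 were the highest and lowest samples of Rragd, so its difference was 1.25 without metformin 2 and -0.50 without metformin 1.

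The 13 cathepsins spread more widely than the pump. Their median difference was 0.25, near 0 (0.003) in the unscaled deposited signals, and 11 of 13 were higher with metformin. The groups did not overlap for 4 higher genes (12.5% of all genes), among them Ctse, which was kept through the metformin group. They did not overlap for 1 lower gene, a share near that of all genes (8.46%). The median SD within groups was 0.52, against 0.20 for the V-ATPase genes and 0.37 for all genes. Relative to the control mean, the median over the 13 stood at 0.21 and -0.21 in the controls and at 0.34 and 0.06 in the metformin samples. The cathepsin median was 0.05 without control 2, 0.06 without metformin 1 and 0.34 without metformin 2. Over the 12 cathepsins above background on all 4 arrays it was 0.21.

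Cathepsins B, L and Z are cysteine proteases present in most cells. Ctsb read 5.20 and 5.04 in the controls and 5.47 and 5.28 with metformin (difference 0.25, SE 0.29). Ctsl read 2.75 and 2.80 in the controls and 2.96 and 2.94 with metformin (difference 0.17, SE 0.27). Ctsz, a carboxypeptidase also called cathepsin X, read 3.98 and 4.18 in the controls and 4.44 and 4.37 with metformin (difference 0.32, SE 0.28; limma, unadjusted p = 0.311). For all 3 the metformin samples formed the upper pair with little spread, and in the unscaled deposited signals Ctsl alone of them had a difference below 0 (-0.09).

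Ctsd and Ctsa carry the motif printed above. Ctsd, the main aspartic protease of lysosomes, read 3.82 and 3.39 in the controls and 3.84 and 3.51 with metformin (difference 0.07, SE 0.33). Its dimmer probe differed by -0.05, the opposite sign, as did the brighter probe under quantile normalization (-0.05). Ctsa, which also protects beta-galactosidase and neuraminidase, read 5.55 and 4.97 in the controls and 5.88 and 5.31 with metformin (difference 0.34, SE 0.39), and the probe for its other transcript differed by 0.14. For both genes the samples numbered 1 were the high ones in each group. The kept members with the motif had a median difference of 0.18 and those without it 0.16. For all tested genes these medians were 0.08 and 0.06. With the shorter core CACGTG the order was reversed. Kept members with the core had a median of 0.17 and those without it 0.19, and all tested genes had 0.059 and 0.064.

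Cathepsins C, H, F and O are further cysteine proteases. Ctsc, which activates granule proteases of immune cells, read 1.91 and 2.45 in the controls and 1.81 and 2.70 with metformin (difference 0.07, SE 0.44). Ctsh, an aminopeptidase, read 3.66 and 4.36 in the controls and 3.54 and 4.37 with metformin (difference -0.06, SE 0.46). Both were high in control 2 and metformin 2. Ctsf read -3.15 and -3.74 in the controls and -3.10 and -3.65 with metformin (difference 0.07, SE 0.38). Ctso read -3.45 and -4.80 in the controls and -2.98 and -4.66 with metformin (difference 0.31, SE 0.77). These last genes were high in the samples numbered 1, and for Ctso the gap between numbers was several times the gap between treatments.

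The remaining cathepsins are typical of particular cells. Ctse is an aspartic protease of gastric and other epithelial cells and of immune cells. It read -7.07 and -6.17 in the controls and -5.00 and -6.15 with metformin, means of -6.62 ± 0.64 and -5.57 ± 0.81 (SD, n = 2). The difference was 1.05 (SE 0.56). Metformin 1 was high, while metformin 2 and control 2 were nearly equal. The probe was above background on only 1 of the control arrays and had entered the comparison through the metformin group, so the size of this difference is uncertain.

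Ctsk, the collagen-degrading protease of osteoclasts and fibroblasts, was the member with both metformin samples below both controls. It read -2.33 and -2.93 in the controls and -2.99 and -4.04 with metformin, means of -2.63 ± 0.43 and -3.51 ± 0.74 (SD, n = 2). The control mean was 1.85-fold the metformin mean (difference -0.88, SE 0.49; limma, unadjusted p = 0.138, adjusted p = 0.9996). Most of that gap came from metformin 2, while metformin 1 and control 2 were close. Fibroblast markers were lower as well: 8 of 9 without overlap (8.46% of all genes), with medians relative to the control mean of 0.68 and -0.68 in the controls and of -1.49 and -2.63 in the metformin samples. The order of these medians over the 4 samples was that of Ctsk, but not every marker followed it. Lum and Dpt were lower in metformin 1 than in metformin 2, and Dpt was above background on only 2 arrays. Fbln1 went the other way (difference 0.57) and was highest in metformin 1. Smooth muscle markers had medians of 2.30 and -2.30 in the controls and of -3.59 and -2.53 in the metformin samples, so control 1 stood far above the other 3, and their median difference was -3.12 with it and -0.73 without it. Adipocyte markers were lower without overlap for 7 of 8 genes (median difference -2.87) and endothelial markers for 4 of 8 (-0.80). The Ctsk difference was -0.36 without metformin 2 and -0.58 without control 1, and the fibroblast median was -1.49 and -1.36. The part of these cell types in the Ctsk result was not tested, and in whole tissue fewer cells of a type cannot be told apart from less RNA per cell.

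Ctsw (lymphopain) is a protease of cytotoxic T and natural killer (NK) cells. It read -2.83 and -4.07 in the controls and -1.58 and -4.11 with metformin (difference 0.60, SE 0.99). Metformin 1 and metformin 2 were the highest and the lowest sample, 2.54 apart, the widest range of any member. Markers of T, NK and innate lymphoid cells (ILC) had medians of 0.23 and -0.23 in the controls and of 1.68 and -0.02 in the metformin samples, with 10 of 11 kept markers higher. Without metformin 1 the Ctsw difference was -0.67 and the lymphoid median -0.02. Ctss, which trims the invariant chain in antigen-presenting cells, read 5.34 and 4.42 in the controls and 5.63 and 4.87 with metformin (difference 0.37, SE 0.49). Macrophage and dendritic cell markers had medians of -0.15 and 0.15 in the controls and of 0.79 and 0.15 in the metformin samples, with 10 of 12 kept markers higher. Metformin 1 was thus the highest sample for Ctsw, Ctss and these 2 immune marker lists, as it was for 23 of the 41 members. It was also highest for B and plasma cell markers (median 1.10). For neutrophil and mast cell markers it was not (median -0.10, against 0.28 in control 2). Between the controls, Ctss was higher in control 1, whereas the macrophage and dendritic cell median was higher in control 2. Absorptive enterocyte markers had medians of 0.31 and -0.31 in the controls and of 0.45 and 0.07 in the metformin samples, the sample order of Ctss. The part of immune or epithelial cells in these values was not tested.

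**Figure D3:**
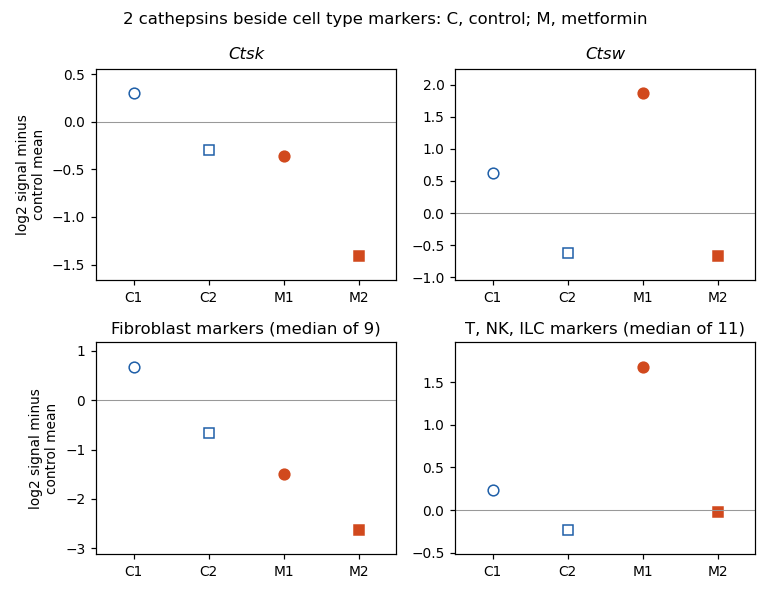
Log2 signal minus the control mean (y axes) in the 4 samples for Ctsk and Ctsw (upper panels), and the median over 9 fibroblast markers and 11 T, NK and ILC markers (lower panels). Ctsk and the fibroblast median descend in the same order of samples, and Ctsw and the lymphoid median are both highest in metformin 1.

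Part of the spread followed the number in the sample name and not the treatment. For 12 of the 41 members both samples numbered 1 lay above both numbered 2, and for 9 the reverse held; over all genes tested the shares were 38.2% and 27.6%. Together these were 51.2% of the members and 65.8% of all genes, so the split is no feature of the members. The 12 were Atp6v0e, Atp6v1d, Atp6v1g2, Atp6v1g3, Lamtor2, Rragd, Ctsa, Ctsd, Ctsf, Ctso, Ctss and Ctsw. The 9 were Atp6v1a, Atp6v1b2, Atp6v1h, Atp6ap2, Lamtor3, Rraga, Rragc, Ctsc and Ctsh. By role, 8 of 13 cathepsins (61.5%) and 5 of 8 Ragulator and Rag genes (62.5%) split by number, shares near that of all genes, and 8 of 20 V-ATPase genes (40.0%) did. The labels do not say what the numbers stand for, and absorptive enterocyte markers split the same way, with 10 of 13 higher in both samples numbered 1.

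**Figure D4:**
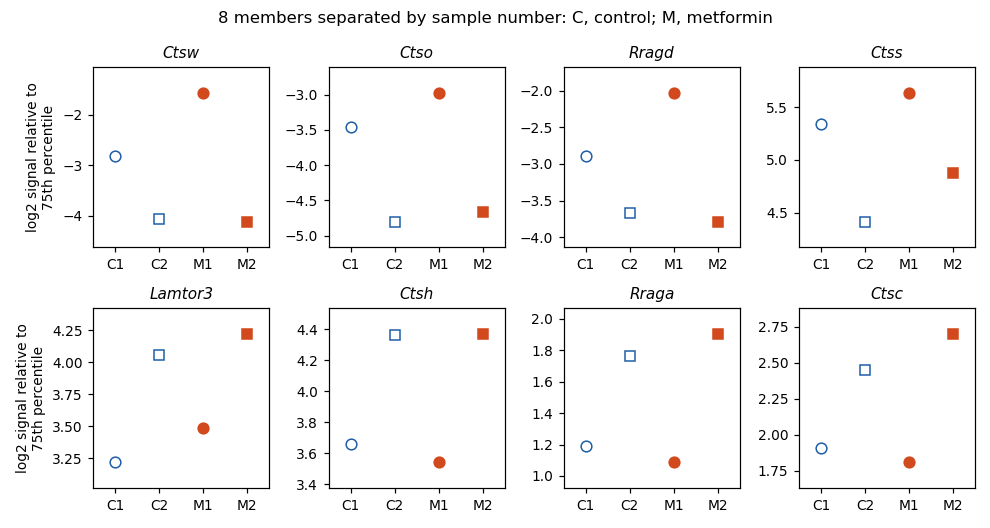
Log2 signal on which 0 is the array's 75th percentile (y axes) in the 4 samples for 8 members chosen for a wide range among those split by sample number; open symbols are controls and filled symbols metformin. In the upper row control 1 and metformin 1 are the high samples, and in the lower row control 2 and metformin 2 are.

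The genes around these members were summarised by lists of known function, and none of their genes passed the test (limma, adjusted p under 0.05). Factors that assemble or regulate the V-ATPase were listed with Tcirg1, which encodes the a3 subunit of V0. The list had a median difference of 0.07 over 11 kept genes, 9 of them higher. Tcirg1, whose symbol lies outside the rule for members, differed by 0.04 (SE 0.27). It was the 1 gene of the list higher without overlap (9.09%, against 12.5% of all genes). Ncoa7, whose product binds the pump, differed by 0.48 (SE 0.40), Tbc1d24 by 0.46 (SE 0.63) and Rogdi, a subunit of the assembly factor RAVE, by 0.22 (SE 0.31). For all 3 the groups overlapped.

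Other lysosomal hydrolases had a median of 0.09 over 31 genes, 19 of them higher (61.3%, near the 57.9% of all genes). Without overlap 4 were higher (12.9%) and 1 was lower (3.23%), at or below the shares of all genes (12.5% and 8.46%). Arsa, which removes sulfate from sulfatide, read 1.77 and 1.5 in the controls and 2.21 and 1.82 with metformin (difference 0.39, SE 0.32). Galc, which cleaves galactosylceramide, was the lower gene (difference -0.45, SE 0.31), and Manba, a beta-mannosidase, differed by 0.32 (SE 0.28). Lysosomal membrane proteins had a median of 0.21 over 19 genes, 17 of them higher and 2 without overlap (10.5%, against 12.5% of all genes). Their examples overlapped between groups: Slc36a1, an amino acid exporter, differed by 0.58 (SE 0.44), and Npc1, which moves cholesterol out of the lysosome, by 0.50 (SE 0.40). Lamp1, the most used lysosome marker, read 6.76 and 6.24 in the controls and 7.02 and 6.48 with metformin (difference 0.26, SE 0.37), again high in the samples numbered 1.

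Sorting receptors, adaptors and activator proteins had a median of 0.01, with 7 of 14 genes higher; Ap3b1, an adaptor of lysosomal membrane cargo, differed by 0.24 (SE 0.28), and Igf2r, a mannose 6-phosphate receptor, by 0.26 (SE 0.32). Inhibitors of cathepsins and related serpins had a median of 0.20 over 6 genes, 4 of them higher, and Serpinb1a differed by 0.40 (SE 0.38). Of 9 further cathepsins known from placenta or from granules of myeloid cells, 2 were kept. Ctsg, the granule serine protease, read -6.57 and -6.36 in the controls and -5.80 and -5.96 with metformin (difference 0.59, SE 0.29; limma, unadjusted p = 0.106). Its probe was above background on 3 arrays, not on control 1. Like Ctse it was kept through the metformin group, so the size of this difference is uncertain.

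The TFE factors showed no common direction. Tfeb read -1.76 and -2.48 in the controls and -1.11 and -2.50 with metformin (difference 0.32, SE 0.59). Tfe3 read 2.20 and 2.66 in the controls and 2.65 and 2.83 with metformin (difference 0.31, SE 0.32). Mitf differed by -0.61 (SE 0.43), with overlapping groups. Tfec was not kept.

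The components of mTORC1 itself had a median difference of 0.02, and 8 of 9 genes differed by less than 1.2-fold. Deptor, an mTOR inhibitor, differed by -0.32 (SE 0.30) and Akt1s1, which encodes PRAS40, by -0.16 (SE 0.29), both without overlap. Amino acid sensors upstream of the Rags had a median of 0.06 over 19 genes, 12 of them higher. Sec13, a GATOR2 subunit, was higher without overlap (0.38, SE 0.33), and Flcn, the GTPase activator for RagC and RagD, was lower without overlap (-0.22, SE 0.30). Genes of the lysosomal AMPK platform had a median of -0.01, with 4 of 9 higher. Psenen read 4.72 and 4.10 in the controls and 4.89 and 4.42 with metformin (difference 0.25, SE 0.38), and control 1 lay above metformin 2. Prkab2, an AMPK beta subunit, differed by -0.61 (SE 0.47), and Prkag1, a gamma subunit, by 0.20 (SE 0.28).

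**Figure D5:**
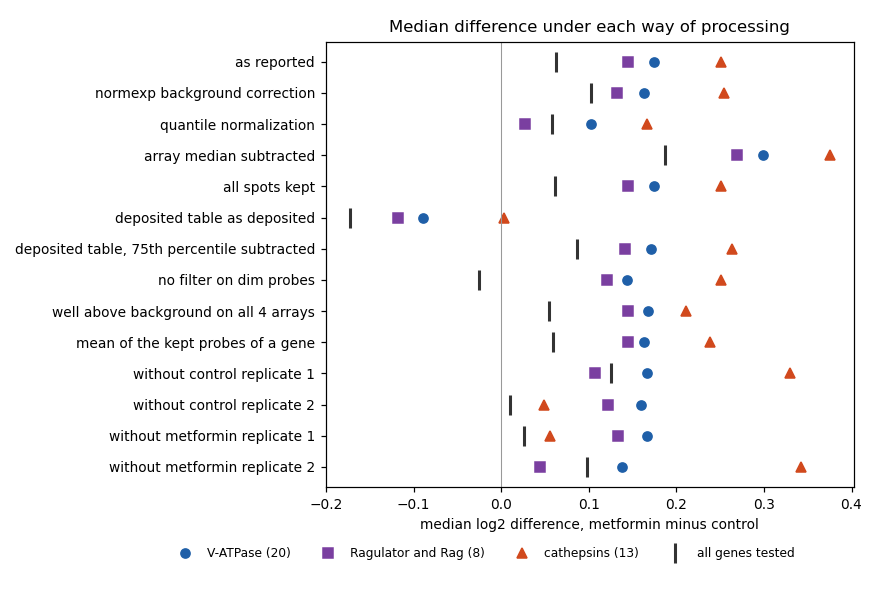
Median log2 difference, metformin minus control (x axis), of the 3 families and of all genes tested under each way of processing (rows); the counts in the legend are those of the values as reported. The V-ATPase and Ragulator medians are above 0 in every row but the deposited signals without scaling, where all genes tested have a median of -0.17.

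The scaling between arrays set the size of the family medians: with each array's median subtracted, the all-gene median was 0.19 and the V-ATPase median 0.30, and after quantile normalization these were 0.06 and 0.10. Set against the all-gene median of the same processing, the V-ATPase and cathepsin medians were higher under each way plotted. The Ragulator and Rag median was lower than that of all genes after quantile normalization (0.03), without control 1 (0.11 against 0.13) and without metformin 2 (0.04 against 0.10). Under quantile normalization 30 of 41 members were higher with metformin, against 57.5% of all genes.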

How the data were processed

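Values came from 4 one-colour Agilent scanner files. Spot intensity (gProcessedSignal, background-subtracted) was made by the authors with Agilent Feature Extraction 10.7.3.1, per the file headers. The authors' deposited series table, also intensity, equalled the unscaled median spot signal for all 38983 single-spot probes compared; 6 further sample columns of it hold no values. For the main values, log2 of gProcessedSignal from the scanner files minus each array's 75th percentile was computed here. The 75th percentile signals were 864 to 1453. Spots of a probe were averaged, controls and outlier spots left out (47 of 39429 probes dropped), and 26441 probes well above background on both arrays of a group kept. The brightest probe stood for a gene. Only 4 arrays limit the precision. The accessions on the array were named through RefSeq, where 27470 probes had a symbol.

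Differences were fitted with limma 3.58.1 in R 4.3.3 (lmFit, eBayes; 2 residual and 2.43 prior degrees of freedom), with Benjamini-Hochberg adjustment over 21649 genes and transcripts at 0.05, and the fit was tested on simulated data. Intervals of 95% use the same degrees of freedom. Alternatives were normexp (offset 50; planned on the mean spot signal but run on the median spot signal, because the scanner columns used hold no gMeanSignal), quantile and median scaling, all spots, the deposited table unscaled and scaled, other filters, mean of probes, variance trend, the replicate block and each sample left out.

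The members and lists were chosen with earlier results of these data known. Examples were named by rule: in each role the 4 members of smallest unadjusted p and the 2 of widest range, every member at least 2-fold different without overlap, fixed key genes, and up to 3 genes per pathway list; the remaining members are given because each is accounted for.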

Additional observations from a re-analysis of the deposited data

How the results depend on the processing

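No member and no gene passed the test (limma) in any of the 15 alternatives. The smallest adjusted p of a member was 0.63, with the replicate block, where 1 member had an unadjusted p under 0.05; the labels give only shared numbers, whose samples deviated together (r = 0.56), and the block moved no estimate. The median of all kept members was 0.10 after quantile normalization, 0.30 with array medians subtracted and -0.093 in the unscaled deposited table. For V-ATPase genes these were 0.10, 0.30 and -0.089, and 0.14 with no filter; for Ragulator and Rag genes 0.027, 0.27 and -0.12. With 1 sample left out they ranged from 0.14 to 0.17 and from 0.044 to 0.13. The cathepsin median ran from 0.003 (unscaled table) to 0.37 (array medians subtracted), and from 0.05 to 0.34 with 1 sample left out, against an SD of 0.26 between the sample medians within a group. Members higher numbered 13 of 41 in the unscaled table, where 20.7% of all genes were higher. Members higher without overlap numbered 7 after quantile normalization (14.1% of all genes), 0 in the unscaled table (1.34%), and 22 to 28 with 1 sample left out (24.7% to 43.1%), which makes separation easier. These counts, and the medians of sectors and marker lists under alternatives, were added after seeing the data.

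Of 28 named members, 9 kept their sign throughout. In the unscaled table differences were -0.16 for Atp6ap1, -0.19 for Atp6ap2, -0.060 for Atp6v0b, -0.010 for Atp6v0c, -0.084 for Atp6v1a, -0.093 for Atp6v1b2, -0.094 for Atp6v1c1, -0.044 for Atp6v1e2, -0.17 for Ctsd, -0.093 for Ctsl, -0.20 for Lamtor1, -0.024 for Lamtor2, -0.065 for Lamtor3, -0.12 for Lamtor4 and Lamtor5, -0.22 for Rraga and -0.17 for Rragc. Quantile normalization gave -0.060 for Atp6ap2, -0.054 for Ctsd, -0.074 for Lamtor1, -0.031 for Rraga and -0.0040 for Rragc. Leaving out 1 sample gave ranges of -0.19 to 0.29 for Atp6ap2, -0.15 to 0.44 for Atp6v1b2, -0.15 to 0.65 for Atp6v1e2, -0.14 to 0.28 for Ctsd, -0.67 to 1.87 for Ctsw, -0.21 to 0.64 for Lamtor3, -0.39 to 0.43 for Rraga, -0.19 to 0.33 for Rragc and -0.50 to 1.25 for Rragd. The cause was not tested. Signal over background limits Ctse and Atp6v1g3, and slide position cannot be told apart from treatment.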
